A study of Homo sapiens with 12 samples.

Results

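A set of 10 genes of the Notch pathway were followed across all 12 libraries. The 10 were the ligands JAG1, JAG2 and DLL1, the receptors NOTCH1, NOTCH2 and NOTCH3, and the targets HES1, HES4, HES5 and HEY1, out of 60645 gene names counted. Each was found by its exact gene symbol in every count table, and all 10 were among the 20377 genes tested. They were selected on results of these same libraries, so their levels and differences are given as a description, with no p-value of their own. Where one of them is said to be called, the fit over all genes passed its threshold of an adjusted p under 0.05. That is stated to show which values a single library or setting decides, and supports nothing further. The libraries were made from polyA RNA of 12KO, an ARID1A-knockout derivative of HEK-293T, the widely used line from human embryonic kidney. The ARID1A protein helps the SWI/SNF (BAF) remodelling complex to engage chromatin. All groups shared that knockout background. The cells received either an empty vector (no ARID1A), wild-type ARID1A (WT) or ARID1A without the disordered segment IDR1b (ΔIDR1b). On top of this they received EWS-FLI1, the fusion transcription factor of Ewing sarcoma, or a second empty vector. Each of the 6 groups held 2 libraries, numbered as repeats. Per the labels, 2 µg of plasmid for EWS-FLI1 and a time of 48 h applied. They do not say whether the knockout line was 1 clone or whether repeats were separate cultures, so the spread between repeats may be technical. The study asked what IDR1b does in transcription driven by EWS-FLI1.

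Notch is a signalling pathway between touching cells. A ligand of the Jagged or Delta-like family on one cell binds a Notch receptor on its neighbour, and the receptor is cut first by an ADAM protease and then by gamma-secretase. The freed intracellular part enters the nucleus, joins the DNA-binding protein RBPJ and a Mastermind coactivator, and switches on genes of the HES and HEY families, which encode basic helix-loop-helix repressors. The ligands and receptors are themselves regulated genes, so levels of their mRNA do not measure signalling.

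RBPJ binds DNA with the core TGGGAA, and the sequences before the RefSeq starts of the 3 HES genes are shown because each holds that core. Bases are written in the direction of the gene, and capitals mark TGGGAA or, for a copy on the opposite strand, TTCCCA. HES1 is shown for chr3:194135898-194136147 on the plus strand. HES4 is shown for chr1:1000168-1000347 and HES5 for chr1:2530264-2530513, both on the minus strand. The sequences are RefSeq's, on GRCh38.p14.
HES1: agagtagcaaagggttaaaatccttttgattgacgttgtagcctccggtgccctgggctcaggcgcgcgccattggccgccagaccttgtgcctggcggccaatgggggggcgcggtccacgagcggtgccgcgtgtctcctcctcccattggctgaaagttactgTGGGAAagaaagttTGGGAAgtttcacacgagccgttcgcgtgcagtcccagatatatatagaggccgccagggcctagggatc
HES4: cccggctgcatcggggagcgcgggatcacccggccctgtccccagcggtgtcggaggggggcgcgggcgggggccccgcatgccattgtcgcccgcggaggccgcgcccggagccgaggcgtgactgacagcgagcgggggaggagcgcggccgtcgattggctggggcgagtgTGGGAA
HES5: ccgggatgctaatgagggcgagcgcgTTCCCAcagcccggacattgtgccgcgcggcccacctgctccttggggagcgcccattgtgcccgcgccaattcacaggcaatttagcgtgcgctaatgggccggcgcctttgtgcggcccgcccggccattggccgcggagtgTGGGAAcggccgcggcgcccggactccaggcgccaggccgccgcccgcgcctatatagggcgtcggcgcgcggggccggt

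The gene model used for counting starts further upstream for HES4 than RefSeq's and takes in 5 of the 6 core bases, so the HES4 stretch stops there. In HES1 the 2 cores begin at bases -84 and -70 before the start and point the same way. HES4 has 1 core, from -76. HES5 has 1 on the gene's strand, from -80, and 1 on the opposite strand, from -224. In each of the 3 genes the core nearest to base -80 extends to GTGGGAA, the form with one more base of the RBPJ site, and the opposite-strand copy in HES5 does so too. Windows of 300 bases, from 250 before to 50 after the start, were found in the RefSeq table for 8 of the 10 genes, all but DLL1 and HEY1. TGGGAA, read on both strands, was found in 3 of those 8, the 3 HES genes, and in 24.0% of all 35116 windows in the table. GTGGGAA, which contains TGGGAA, was found in the same 3 and in 6.25% of all windows. GGAAGGAA, a pair of the GGAA units that ETS-family proteins such as FLI1 bind, was in 0 of 8 and in 3.67% of all windows. TGGGAA itself ends in GGAA, so the searches overlap. These matches describe letters in a window and are not measurements of binding.

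**Figure D1:**
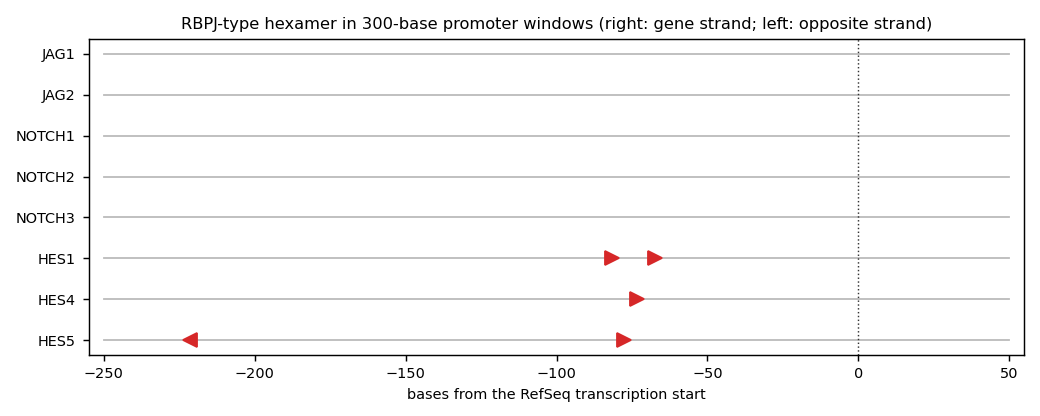
Positions of TGGGAA in the promoter windows of 8 genes, with bases from the RefSeq transcription start on the horizontal axis and 1 row per gene. Red triangles mark matches, pointing right on the gene's own strand and left on the opposite one. Matches lie in HES1, HES4 and HES5 and in none of the 5 ligand and receptor windows.

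Levels below are CPM, counts scaled to library size by the TMM method, computed from the authors' unnormalized fragment counts, and a difference is a log2 fold change ± standard error (SE) from 1 edgeR fit to all libraries. Totals ran from 11702251 to 14445379 counts per library, and a count of 0 allows up to 3 counts, or 0.209 to 0.259 CPM in a library. Amplified fragments are not independent molecules, so such floors cover counting error only. ARID1A itself lay at 147 to 165 CPM without introduced ARID1A, at 1843 to 2291 CPM with WT and at 2608 to 2878 CPM with ΔIDR1b. Transcripts of the knocked-out gene were therefore still counted, and the ΔIDR1b libraries held more ARID1A mRNA than the WT ones. FLI1 lay between 0 and 0.146 CPM with the empty vector, at 1830 and 1688 CPM with EWS-FLI1 alone, at 3675 and 3462 CPM with WT and at 1888 and 1906 CPM with ΔIDR1b. Of 8 HEK-293 markers 7 averaged at least 1 CPM, all but NEFM, and their sum lay at 962 to 1080 CPM with no ARID1A, 1132 to 1220 CPM with WT and 858 to 978 CPM with ΔIDR1b. The summed level of 7 fibroblast markers was highest with ΔIDR1b (123 to 135 CPM, against 88 to 98.2 CPM with no ARID1A and 93.2 to 118 CPM with WT), with COL1A2 at 3 counts or fewer in every library and COL1A1 alone at 73.0 to 105 CPM. Endothelial markers summed to 0.256 to 2.22 CPM and blood markers to 4.24 to 8.35 CPM, with PECAM1, PTPRC and CD3E at 3 counts or fewer, and the Ewing sarcoma list to 2.31 to 5.03 CPM. In bulk RNA fewer cells of a type and less RNA per cell cannot be told apart.

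The 3 receptors shared an order: lowest with no ARID1A, intermediate with WT and highest with ΔIDR1b. The targets HES4 and HEY1 had the opposite order. HES1 was lower with either form of ARID1A, at about one level in both. HES5 was near the detection limit with no ARID1A and with WT, and higher with ΔIDR1b. JAG1 was highest with WT, while JAG2 and DLL1 stayed within narrow ranges. EWS-FLI1 gave no called difference in any of the 10.

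Among the ligands, JAG1, the Jagged ligand mutated in Alagille syndrome, was the lowest expressed. With no ARID1A it stood at 7.51 and 6.43 CPM under the empty vector and at 6.22 and 7.52 CPM with EWS-FLI1. With WT it stood at 12.4 and 11.1 CPM under the empty vector and at 17.8 and 12.7 CPM with EWS-FLI1. With ΔIDR1b it stood at 7.46 and 10.1 CPM under the empty vector and at 11.5 and 8.97 CPM with EWS-FLI1. All 4 WT libraries were thus above all 4 libraries without ARID1A, and the ΔIDR1b libraries overlapped both when the vectors were pooled. Within each vector both ΔIDR1b libraries were below both WT libraries. ΔIDR1b minus WT was -0.42 ± 0.22 without EWS-FLI1 and -0.57 ± 0.22 with it, neither called, and the second was called with the block within each vector (-0.57) and without WT repeat 2 of EWS-FLI1 (-0.80). WT minus no ARID1A came to 0.75 ± 0.23 under the empty vector and 1.15 ± 0.23 with EWS-FLI1. The call with the empty vector was lost in DESeq2 (0.74) and when any 1 of its 4 libraries was left out (0.65 to 0.87). ΔIDR1b minus no ARID1A was 0.33 ± 0.23 and 0.57 ± 0.23, and neither was called. The second was called when repeat numbers were blocked within each vector (0.56) and when only its own groups were fitted (0.55). It was also called without ΔIDR1b repeat 2 of EWS-FLI1 (0.74) and without either WT library of EWS-FLI1 (0.57 each), which are not part of that comparison. JAG1 shares 3.29% of its exonic bases with an opposite-strand gene, and the counts do not use strand.

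JAG2, a second Jagged ligand, was the most abundant of the 3 ligands. It lay between 163 and 172 CPM in the 4 libraries without ARID1A, between 167 and 210 CPM with WT and between 191 and 215 CPM with ΔIDR1b. The ΔIDR1b libraries did not overlap those without ARID1A, but the difference was small: 0.24 ± 0.11 under the empty vector and 0.25 ± 0.11 with EWS-FLI1, not called. Both were called with the block within each vector, at 0.23 and 0.24, with only the groups compared, at 0.23 each, and when either WT library with EWS-FLI1 was left out. JAG2 shares 7.33% of its exonic bases with another gene. DLL1, a Delta-like ligand, spanned 31.7 to 42.2 CPM over all libraries, with every group overlapping its neighbours in rank. Its differences between ARID1A states ran from -0.21 to 0.07 and none was called. DLL1 shares 9.69% of its exonic bases with FAM120B on the opposite strand. Per kilobase of exon, mean levels over the 6 groups were 29.3 CPM for JAG2, 9.47 CPM for DLL1 and 1.07 CPM for JAG1.

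NOTCH3, the receptor best known from vascular smooth muscle, showed the widest range of the 3 receptors. With no ARID1A it stood at 47.1 and 47.8 CPM under the empty vector and at 49.6 and 42.3 CPM with EWS-FLI1. With WT it stood at 85.4 and 76.1 CPM under the empty vector and at 83.3 and 111 CPM with EWS-FLI1. With ΔIDR1b it stood at 160 and 177 CPM under the empty vector and at 165 and 170 CPM with EWS-FLI1. The 3 states did not overlap in any library. WT minus no ARID1A was 0.77 ± 0.12 under the empty vector and 1.08 ± 0.12 with EWS-FLI1. ΔIDR1b minus no ARID1A was 1.83 ± 0.12 and 1.86 ± 0.12. ΔIDR1b thus held 3.59 times the NOTCH3 level of no ARID1A, and WT 1.90 times, over 4 libraries each. ΔIDR1b minus WT was 1.06 ± 0.12 under the empty vector and 0.79 ± 0.12 with EWS-FLI1.

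NOTCH1, the receptor that acts in T-cell development and T-cell leukaemia, followed the same order. It stood at 45.1 and 44.0 CPM with no ARID1A and the empty vector, and at 41.3 and 47.4 CPM with EWS-FLI1. With WT the values were 80.1 and 68.4 CPM, and 69.1 and 92.0 CPM. With ΔIDR1b they were 114 and 116 CPM, and 104 and 111 CPM. Again no library of one state reached the range of another. The difference of WT from no ARID1A was 0.74 ± 0.13 under the empty vector and 0.86 ± 0.13 with EWS-FLI1, and ΔIDR1b minus no ARID1A was 1.36 ± 0.13 and 1.28 ± 0.13. ΔIDR1b minus WT was 0.63 ± 0.12 and 0.42 ± 0.12. The last value rested on single libraries: its call was lost without WT repeat 1 of EWS-FLI1 (0.23), without ΔIDR1b repeat 2 of EWS-FLI1 (0.37) and when only the groups compared were fitted.

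NOTCH2, a paralogue with broad expression, was the most abundant receptor by fragments and, per kilobase, stood at 12.4 CPM over the 6 groups against 10.8 CPM for NOTCH3 and 6.20 CPM for NOTCH1. It lay between 134 and 158 CPM with no ARID1A, between 175 and 228 CPM with WT and between 263 and 293 CPM with ΔIDR1b. These ranges did not overlap. WT minus no ARID1A was 0.49 ± 0.11 under the empty vector and 0.51 ± 0.11 with EWS-FLI1. ΔIDR1b minus no ARID1A was 1.05 ± 0.11 and 0.95 ± 0.11, and ΔIDR1b minus WT was 0.56 ± 0.10 and 0.44 ± 0.10. The WT call with the empty vector was lost without WT repeat 2 (0.39), and the call of ΔIDR1b against WT with EWS-FLI1 when only those groups were fitted (0.43). NOTCH2 has near-identical partial copies, and fragments mapping to several places were not counted, so its level is uncertain. The copies themselves were counted at 2.08 to 4.75 CPM (NOTCH2NLA), 2.05 to 5.29 CPM (NOTCH2NLB), 4.87 to 10.4 CPM (NOTCH2NLC) and at most 0.0748 CPM (NOTCH2NLR).

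HES4, a HES repressor that mice lack, was the most abundant of the 10 genes. With no ARID1A it stood at 487 and 459 CPM under the empty vector and at 437 and 449 CPM with EWS-FLI1. With WT it stood at 334 and 253 CPM under the empty vector and at 200 and 258 CPM with EWS-FLI1. With ΔIDR1b it stood at 172 and 130 CPM under the empty vector and at 105 and 138 CPM with EWS-FLI1. The 3 states did not overlap, and the mean with ΔIDR1b was 0.297 times that with no ARID1A. WT minus no ARID1A was -0.69 ± 0.13 under the empty vector and -0.95 ± 0.13 with EWS-FLI1. ΔIDR1b minus no ARID1A was -1.65 ± 0.13 and -1.86 ± 0.14, and ΔIDR1b minus WT was -0.96 ± 0.13 and -0.91 ± 0.13. The WT call with the empty vector was lost without WT repeat 2 (-0.49).

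HEY1, of the Hairy-related HEY family, had the same direction and a smaller span. It lay between 277 and 314 CPM with no ARID1A, between 171 and 197 CPM with WT and between 128 and 162 CPM with ΔIDR1b. The states did not overlap, although the gap between WT and ΔIDR1b was narrow. Relative to no ARID1A, WT stood at -0.60 ± 0.11 under the empty vector and -0.71 ± 0.11 with EWS-FLI1, and ΔIDR1b minus no ARID1A was -1.02 ± 0.11 and -0.99 ± 0.11. ΔIDR1b minus WT was -0.43 ± 0.11 with the empty vector, called except without ΔIDR1b repeat 2 (-0.35). With EWS-FLI1 it was -0.27 ± 0.11 and was not called, but it was called with the block within each vector (-0.28), without WT repeat 2 (-0.30) and without ΔIDR1b repeat 1 (-0.45).

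HES1, the HES repressor most often used as a Notch readout, lay between 77.9 and 86.9 CPM with no ARID1A. With WT it lay between 51.9 and 64.3 CPM, and with ΔIDR1b between 51.3 and 63.8 CPM. Every library with introduced ARID1A was thus below every library without it, while the WT and ΔIDR1b ranges overlapped nearly entirely. Against no ARID1A, WT came to -0.55 ± 0.12 under the empty vector and -0.58 ± 0.12 with EWS-FLI1, and ΔIDR1b minus no ARID1A was -0.57 ± 0.12 and -0.51 ± 0.12. The first value lost its call without WT repeat 1 (-0.50) or the no-ARID1A repeat 1 (-0.47). ΔIDR1b minus WT was -0.02 ± 0.12 and 0.06 ± 0.12.

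HES5, a HES repressor of neural progenitors, was barely expressed. Its fragments numbered 10 and 3 with no ARID1A and the empty vector, 5 and 2 with EWS-FLI1, 8 and 4 with WT, and 0 and 9 with WT and EWS-FLI1. With ΔIDR1b they numbered 32 and 41 without EWS-FLI1 and 22 and 55 with it. Those were 0 to 0.743 CPM in the first 8 libraries and 1.56 to 3.82 CPM in the 4 ΔIDR1b libraries, with no overlap. HES5 passed the filter on low counts only through the ΔIDR1b groups, so it could enter the fit only with a difference. ΔIDR1b minus no ARID1A was 2.42 ± 0.74 under the empty vector and 3.13 ± 0.81 with EWS-FLI1, and ΔIDR1b minus WT was 2.53 ± 0.75 and 2.95 ± 0.78. Each of the 4 calls was lost when single libraries were left out, the ΔIDR1b repeat 2 of that vector in every case (2.16 to 2.36), and also, under the empty vector, the no-ARID1A repeat 2 (1.81) or WT repeat 2 (2.13) and, with EWS-FLI1, WT repeat 1 (1.96). For WT minus no ARID1A the values were -0.11 ± 0.87 and 0.18 ± 1.01, errors too wide to show a difference at this depth.

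**Figure D2:**
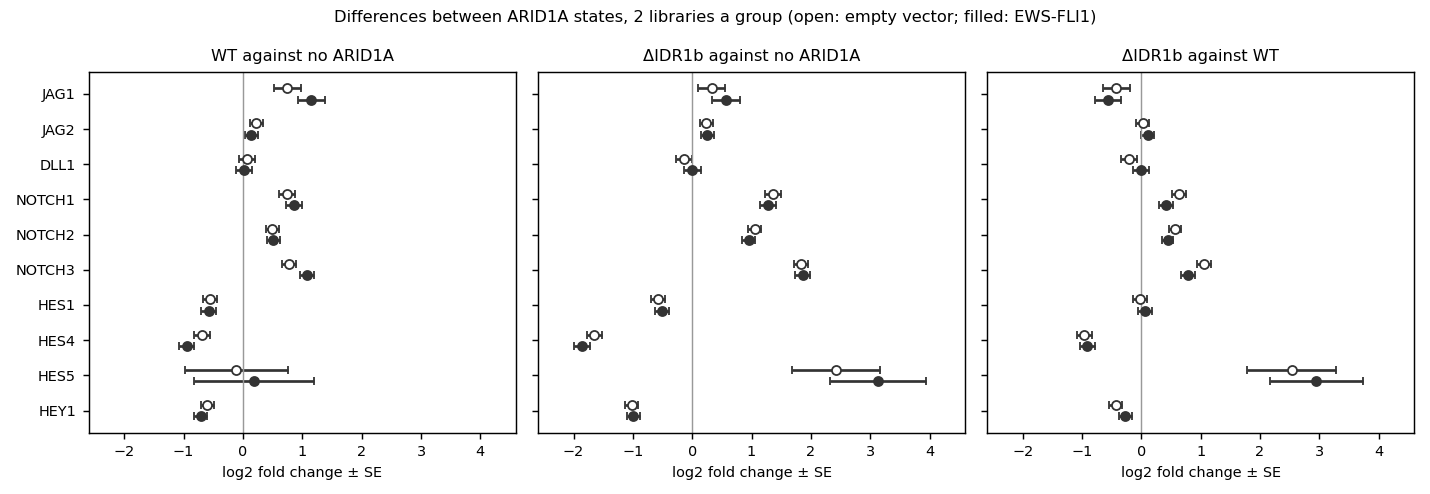
Log2 fold changes (horizontal axes, bars ± SE) of the 10 genes (rows) between ARID1A states, 2 libraries a group, open under the empty vector and filled with EWS-FLI1. NOTCH1, NOTCH2 and NOTCH3 lie right of 0 in all 3 panels, HES4 and HEY1 left of 0, and HES5 has the widest bars.

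In counts, WT against no ARID1A called 4 of the 10 genes higher and 3 lower with either vector. Over all 20377 genes tested that comparison called 6.50% higher and 5.19% lower under the empty vector, and 9.72% higher and 8.36% lower under EWS-FLI1. ΔIDR1b against no ARID1A called 4 higher and 3 lower with either vector, where all genes gave 16.4% higher and 16.8% lower under the empty vector and 18.1% higher and 17.9% lower under EWS-FLI1. ΔIDR1b against WT called 4 higher and 2 lower without EWS-FLI1 (all genes 11.1% higher and 13.4% lower) and 4 higher and 1 lower with EWS-FLI1 (all genes 8.48% and 10.1%). HES5 is 1 of the 4 higher in each comparison with ΔIDR1b, and since it could enter the fit only with a difference, its calls add nothing to these counts, which are 3 higher without it. With the block within each vector the last comparison called 7 of the 10 in place of 5. Since the 10 were selected on these libraries, nothing is read from their share. Upper-quartile scaling shifted the split of all called genes: the part called higher went from 55.6% to 39.4% for WT against no ARID1A with the empty vector, from 53.8% to 42.2% with EWS-FLI1, and from 45.4% to 56.1% when ΔIDR1b was set against WT under the empty vector. It changed no direction among called values of the 10. Comparisons that share a group share its libraries, so the columns above are not independent of each other. The higher ARID1A level in ΔIDR1b than in WT moves with these orders, and its part in them was not tested, nor was that of the fibroblast and HEK-293 marker sums, which also differ between states.

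Receptor and target mRNA were also set against each other within each library, per kilobase of exon. HES4 per kilobase was 74.1 to 89.1 times NOTCH3 with no ARID1A, 19.6 to 32.9 times with WT and 5.38 to 9.03 times with ΔIDR1b. HEY1 was 9.95 to 11.4, 2.65 to 4.37 and 1.29 to 1.68 times NOTCH3 in the same order. HES1 was 7.44 to 9.33, 2.65 to 3.45 and 1.32 to 1.77 times NOTCH3. All 3 ratios kept the states apart in every library, and they restate the levels above.

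EWS-FLI1 was compared with the empty vector within each ARID1A state. It called 0 of the 10 genes in any state by edgeR's quasi-likelihood test and 0 by DESeq2. At an unadjusted p under 0.05 edgeR gave 0 with no ARID1A, 2 with WT and 1 with ΔIDR1b, beside 643, 1331 and 1110 of all 20377 genes. As the 10 were selected on these libraries, nothing is read from these counts. At the adjusted threshold EWS-FLI1 called 0.0442%, 0.221% and 0.172% of all genes in those states. HES4 stood at -0.36 ± 0.13 with WT and -0.31 ± 0.13 with ΔIDR1b, against -0.10 ± 0.13 with no ARID1A. HES4 with WT was called with the block within each vector (-0.35) and without WT repeat 2 of EWS-FLI1 (-0.55). NOTCH3 with WT stood at 0.27 ± 0.12 and was called without WT repeat 1 of EWS-FLI1 (0.46), and JAG1 with WT at 0.37 ± 0.21. FLI1 was highest in that same state, and its part in these values was not tested. The 2 libraries of WT with EWS-FLI1 also differed most from each other among the 6 pairs of repeats (chi-square over degrees of freedom 12.1, against 3.02 for the closest pair). For 8 of the 10 genes, all but HES5 and JAG1, the SE of the effect was between 0.10 and 0.14, so small differences were not detectable.

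The EWS-FLI1 effect was then compared between ARID1A states. The interaction was called for 0 of the 10 genes in each of 3 tests by edgeR's quasi-likelihood test, with 0 at an unadjusted p under 0.05 and 0 by DESeq2. All genes gave 0.0245% called for WT against no ARID1A, 0.0196% for ΔIDR1b against no ARID1A and 0% for ΔIDR1b against WT. At the unadjusted threshold they gave 884, 702 and 741 of 20377 in the same order. NOTCH3 differed by 0.31 ± 0.17 between WT and no ARID1A and by -0.27 ± 0.17 between ΔIDR1b and WT. HES4 differed by -0.26 ± 0.18 between WT and no ARID1A. HES5 had an SE above 1 in all 3.

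**Figure D3:**
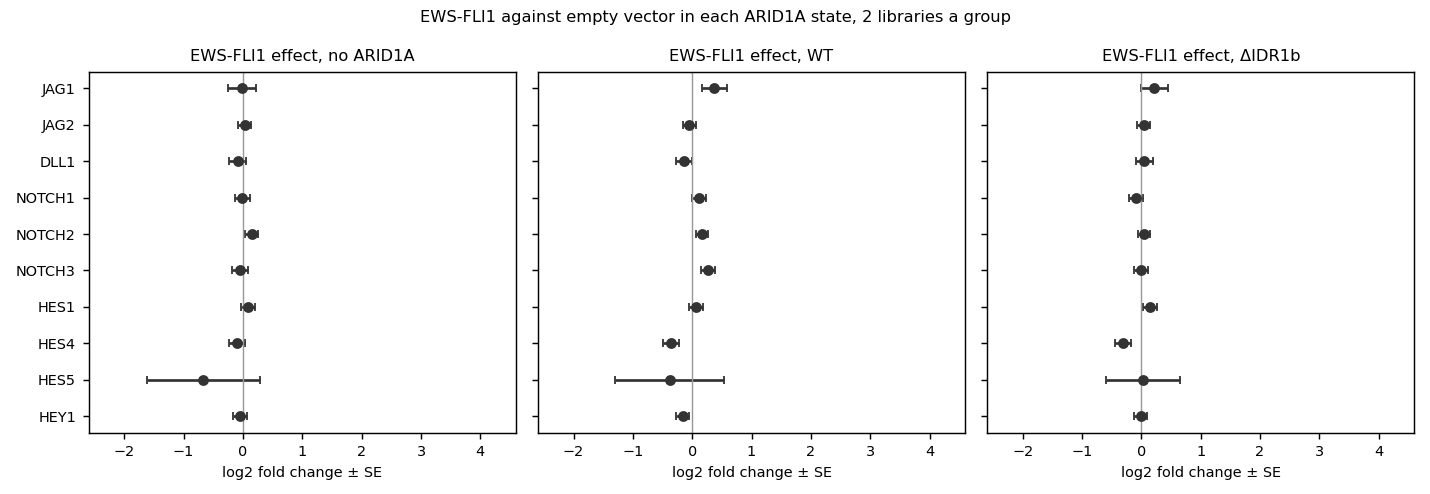
Log2 fold changes of EWS-FLI1 against the empty vector (horizontal axes, bars ± SE) for the 10 genes (rows) in each ARID1A state, 2 libraries a group. Apart from HES5, the values lie between -0.36 and 0.37, on the same scale as the plot of ARID1A differences.

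The rest of the pathway was read from a list of 71 other Notch genes, of which 62 passed the filter. WT against no ARID1A called 8 of the 62 under the empty vector, 6 higher and 2 lower, and 15 under EWS-FLI1, 12 higher and 3 lower. ΔIDR1b against no ARID1A called 23 with either vector, 15 higher and 8 lower. Those called higher under EWS-FLI1 include MFNG, which passed the filter on low counts only through the ΔIDR1b groups. ΔIDR1b against WT called 17 under the empty vector, 8 higher and 9 lower, and 10 under EWS-FLI1, 5 higher and 5 lower. As shares of the 62 these counts are 12.9% and 24.2%, 37.1% and 37.1%, and 27.4% and 16.1%. Over all genes the same comparisons called 11.7% and 18.1%, 33.3% and 35.9%, and 24.5% and 18.6%, so the list's shares lay near the background. Counts under other settings, given below, are over the listed genes tested in each. The number of all genes called moved in the same direction in each of those settings, so the changes are not particular to the list. The list's median log2 difference was 0.08 and 0.07 for WT, and 0.14 and 0.13 for ΔIDR1b, against no ARID1A, beside -0.01, -0.02, 0.00 and 0.02 over all genes. The last count became 18 with the block within each vector and 19 without WT repeat 2 of EWS-FLI1, and the first was 3 without the no-ARID1A repeat 2, 4 without WT repeat 1, 5 without WT repeat 2 and 13 without WT repeat 1 of EWS-FLI1. With EWS-FLI1, the 15 became 4 and 6 without the no-ARID1A repeat 1 or 2, and the 23 became 15 without the no-ARID1A repeat 1. With the empty vector, the 23 became 14 without the no-ARID1A repeat 2 or ΔIDR1b repeat 2, and the 17 became 9 without WT repeat 1 or ΔIDR1b repeat 2 and 10 without ΔIDR1b repeat 1. The 10 became 5 without ΔIDR1b repeat 1 of EWS-FLI1.

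Of 9 genes of nuclear activation, 3 were called with ΔIDR1b against no ARID1A under either vector, 1 higher and 2 lower. That is 33.3%, beside 33.3% and 35.9% of all genes. The 3 were RBPJ, EP300 and KAT2A. RBPJ, the DNA-binding partner of the Notch intracellular domain, stood at 282 to 298 CPM with no ARID1A, 221 to 278 CPM with WT and 161 to 177 CPM with ΔIDR1b. It fell with ΔIDR1b against no ARID1A (-0.76 ± 0.10, adjusted p = 5.14e-07 with the empty vector, and -0.79 ± 0.10, adjusted p = 2.18e-07 with EWS-FLI1, edgeR) and against WT (-0.60 ± 0.10, adjusted p = 4.93e-05, and -0.56 ± 0.10, adjusted p = 1.99e-04). WT against no ARID1A was not called for RBPJ (-0.16 ± 0.10 and -0.23 ± 0.10), although the second was called with upper-quartile factors (-0.29), with the block within each vector (-0.24) and without WT repeat 1 of EWS-FLI1 (-0.37). EP300, an acetyltransferase that the complex recruits, went the other way, from 65.3 to 67.8 CPM with no ARID1A to 128 to 148 CPM with ΔIDR1b (1.06 ± 0.11, adjusted p = 4.52e-09, and 1.10 ± 0.11, adjusted p = 1.74e-09). KAT2A, another acetyltransferase, fell with ΔIDR1b (-0.74 ± 0.10, adjusted p = 1.14e-06, and -0.91 ± 0.11, adjusted p = 3e-08). It also fell with WT (-0.39 ± 0.10, adjusted p = 0.011, and -0.57 ± 0.10, adjusted p = 1.9e-04), the first call being lost without the no-ARID1A repeat 2 or either WT library. KAT2A shares 10.7% of its exonic bases with another gene.

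Among 14 genes of nuclear repression, HDAC1, a histone deacetylase of corepressor complexes, fell with ΔIDR1b from 530 to 562 CPM to 334 to 378 CPM (-0.53 ± 0.09, adjusted p = 2.33e-05, and -0.72 ± 0.09, adjusted p = 1.12e-07). HDAC1 also fell with WT under EWS-FLI1 (-0.37 ± 0.09, adjusted p = 0.00333), and was not called with WT under the empty vector. TLE3, a Groucho-type corepressor that HES proteins bind, was highest with WT, at 164 to 191 CPM against 98.8 to 117 CPM with no ARID1A (0.55 ± 0.10, adjusted p = 3.79e-04, and 0.84 ± 0.10, adjusted p = 4.03e-07). With ΔIDR1b it lay between, at 129 to 140 CPM. CIR1, a corepressor that binds RBPJ, rose with WT and the empty vector (0.65 ± 0.15, adjusted p = 0.00334) and was lower with ΔIDR1b than with WT (-0.66 ± 0.15, adjusted p = 0.0013), the former call being lost without the no-ARID1A repeat 2 or WT repeat 1. Under EWS-FLI1 neither CIR1 difference was called (0.13 ± 0.15, adjusted p = 0.612, and -0.35 ± 0.15, adjusted p = 0.101), and the second was called with the block within each vector (-0.35) and without WT repeat 2 (-0.55). In ΔIDR1b against no ARID1A, 2 of the 14 were called higher and 1 lower under the empty vector, and 3 and 1 under EWS-FLI1. All genes gave 16.4% higher and 16.8% lower, and 18.1% and 17.9%, in the same order.

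The other HES and HEY genes and the feedback gene NRARP differed among themselves in direction. HES2, a HES family member, rose with ΔIDR1b from 0.52 to 2.17 CPM to 4.79 to 6.80 CPM (2.10 ± 0.42, adjusted p = 1.94e-04, and 2.14 ± 0.42, adjusted p = 1.52e-04). HES7, the segmentation-clock member, fell with the empty vector (-0.73 ± 0.20, adjusted p = 0.00538), a call lost without ΔIDR1b repeat 2 (-0.49). With EWS-FLI1 it stood at -0.48 ± 0.21, adjusted p = 0.0685, and was called with the block within each vector (-0.49), with only those groups fitted (-0.50) and without either WT library of EWS-FLI1. NRARP, a small ankyrin-repeat protein that Notch induces and that restrains it, fell with ΔIDR1b from 95.9 to 111 CPM to 69.1 to 75.8 CPM (-0.59 ± 0.12, adjusted p = 2.93e-04, and -0.43 ± 0.12, adjusted p = 0.00564), the second call being lost without the no-ARID1A repeat 1 (-0.41) or ΔIDR1b repeat 1 (-0.36). Of the 5 tested in the other HES and HEY class, 2 were called higher and 1 lower for ΔIDR1b under the empty vector, and 1 higher and 0 lower with EWS-FLI1. Beside these, all genes gave 16.4% higher and 16.8% lower, and 18.1% and 17.9%.

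Genes that act on ligands and receptors outside the nucleus were read next. In ΔIDR1b against no ARID1A, 2 of 4 genes of ligand endocytosis were called higher and 0 lower under either vector. Of 9 genes of receptor turnover tested, 4 were called higher and 2 lower under the empty vector, and 2 and 2 under EWS-FLI1. The same comparison called 16.4% of all genes higher and 16.8% lower under the empty vector, and 18.1% and 17.9% under EWS-FLI1. MIB1, the ubiquitin ligase that starts ligand endocytosis, rose with WT (0.58 ± 0.10, adjusted p = 7.87e-05, and 0.73 ± 0.10, adjusted p = 1.02e-06) from 178 to 195 CPM to 281 to 316 CPM, and lay at 288 to 317 CPM with ΔIDR1b. NEURL1B, a ligase of the same step, rose with ΔIDR1b (0.75 ± 0.16, adjusted p = 5.55e-04 without EWS-FLI1, and 0.82 ± 0.16, adjusted p = 1.88e-04 with it). NEURL1B also rose with WT under EWS-FLI1 (0.54 ± 0.17, adjusted p = 0.0196). That call was lost with only those groups fitted (0.55) and without either no-ARID1A library or WT repeat 2 of EWS-FLI1 (0.26 to 0.56). DTX2, a Deltex ubiquitin ligase that binds Notch, rose with ΔIDR1b (0.64 ± 0.20, adjusted p = 0.0133 without EWS-FLI1, and 0.92 ± 0.20, adjusted p = 4.53e-04 with it), the former call being lost without the no-ARID1A repeat 1 or either ΔIDR1b library (0.48 to 0.67). FBXW7, which marks the Notch intracellular domain for degradation, fell with ΔIDR1b under EWS-FLI1 (-0.40 ± 0.12, adjusted p = 0.00948), a call lost without the no-ARID1A repeat 1 or ΔIDR1b repeat 2, and stood at -0.22 ± 0.12 (adjusted p = 0.157) under the empty vector. DLL4, a Delta-like ligand of vessels, rose with WT and the empty vector (1.35 ± 0.29, adjusted p = 0.00199), a call lost without WT repeat 1 (1.16), and stood at 0.69 ± 0.26 (adjusted p = 0.0589) under EWS-FLI1, called there with the block within each vector (0.69) and without WT repeat 1 (0.85). DLL4 also rose with ΔIDR1b and the empty vector (1.06 ± 0.30, adjusted p = 0.00561), a call lost without the no-ARID1A repeat 1 (0.98). Under EWS-FLI1 its ΔIDR1b difference was 0.63 ± 0.26 (adjusted p = 0.0559).

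Of 5 glycosyltransferases that modify the receptor, 1 was called higher and 1 lower with ΔIDR1b under the empty vector, and 3 and 1 under EWS-FLI1. Of 9 proteases and subunits that cut it, 2 were called higher and 1 lower, and 2 and 2. All genes gave 16.4% higher and 16.8% lower under the empty vector, and 18.1% and 17.9% under EWS-FLI1. LFNG, a Fringe glycosyltransferase that tunes which ligand a receptor answers to, rose with ΔIDR1b and EWS-FLI1 from a mean of 0.817 to 3.97 CPM (2.27 ± 0.43, adjusted p = 8.86e-05). Under the empty vector the LFNG difference was 1.02 ± 0.38 (adjusted p = 0.0351), from a mean of 1.83 to 3.73 CPM, and that call was lost in DESeq2, without the filter on low counts, and without either no-ARID1A library or ΔIDR1b repeat 1. LFNG also rose with WT under EWS-FLI1 (1.82 ± 0.44, adjusted p = 0.00354), a call lost without the no-ARID1A repeat 1 (1.48). MFNG, another Fringe, had 1 and 1 counts with EWS-FLI1 alone and 19 and 20 counts with ΔIDR1b and EWS-FLI1. That difference was called, lost its call without either of the former libraries, and is given no fold or p-value because of the low counts. Outside the ΔIDR1b groups only WT repeat 2 of EWS-FLI1, at 19 counts, reached the filter's minimum count of 10. MFNG thus passed the filter on low counts only through the ΔIDR1b groups. Its call therefore adds nothing to the 3 called higher above. Under the empty vector the MFNG difference was not called (adjusted p = 0.391). POFUT1, which adds the fucose that Fringe extends, was higher with ΔIDR1b than with WT (0.65 ± 0.12, adjusted p = 9.73e-05, and 0.64 ± 0.12, adjusted p = 1.69e-04). Its means under the empty vector and EWS-FLI1 were 70.1 and 62.4 CPM with no ARID1A, 52.1 and 58.5 CPM with WT, and 81.5 and 91.1 CPM with ΔIDR1b. WT minus no ARID1A under the empty vector was -0.43 ± 0.12 (adjusted p = 0.0137), a call lost when either library of either group was left out (-0.43 to -0.42). ADAM17, a protease that can make the first cut, was lower with ΔIDR1b than with WT (-0.40 ± 0.11, adjusted p = 0.00948 without EWS-FLI1, and -0.47 ± 0.11, adjusted p = 0.0037 with it), the former call being lost without WT repeat 2 (-0.32) or ΔIDR1b repeat 1 (-0.29). PSENEN, a gamma-secretase subunit, was lower under the empty vector (-0.91 ± 0.21, adjusted p = 0.00175) and stood at -0.01 ± 0.21 (adjusted p = 0.989) under EWS-FLI1. PSENEN shares 52.2% and ADAM17 11.7% of their exonic bases with other genes, so their counts are uncertain. NEUROG2, a proneural factor of the kind that HES proteins repress, was higher with ΔIDR1b than with WT under EWS-FLI1 (2.03 ± 0.46, adjusted p = 0.00218), at means of 4.04 and 0.983 CPM, and stood at 0.99 ± 0.46 (adjusted p = 0.118) under the empty vector. EWS-FLI1 called 0 of the 62 genes in any state by edgeR's quasi-likelihood test or DESeq2, and the interactions called 0 by either tool. At an unadjusted p under 0.05 in edgeR, EWS-FLI1 gave 3, 6 and 2, beside 643, 1331 and 1110 of all 20377 genes. The interactions gave 2, 1 and 1, beside 884, 702 and 741. DLL4, not called and named here outside the naming rule, was higher in both EWS-FLI1 libraries than in both empty-vector ones in every state. How many other genes did so was not counted. The EWS-FLI1 differences of DLL4 were 1.28 ± 0.30 with no ARID1A, 0.62 ± 0.25 with WT and 0.85 ± 0.26 with ΔIDR1b (adjusted p = 0.198, 0.66 and 0.387, edgeR).

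**Figure D4:**
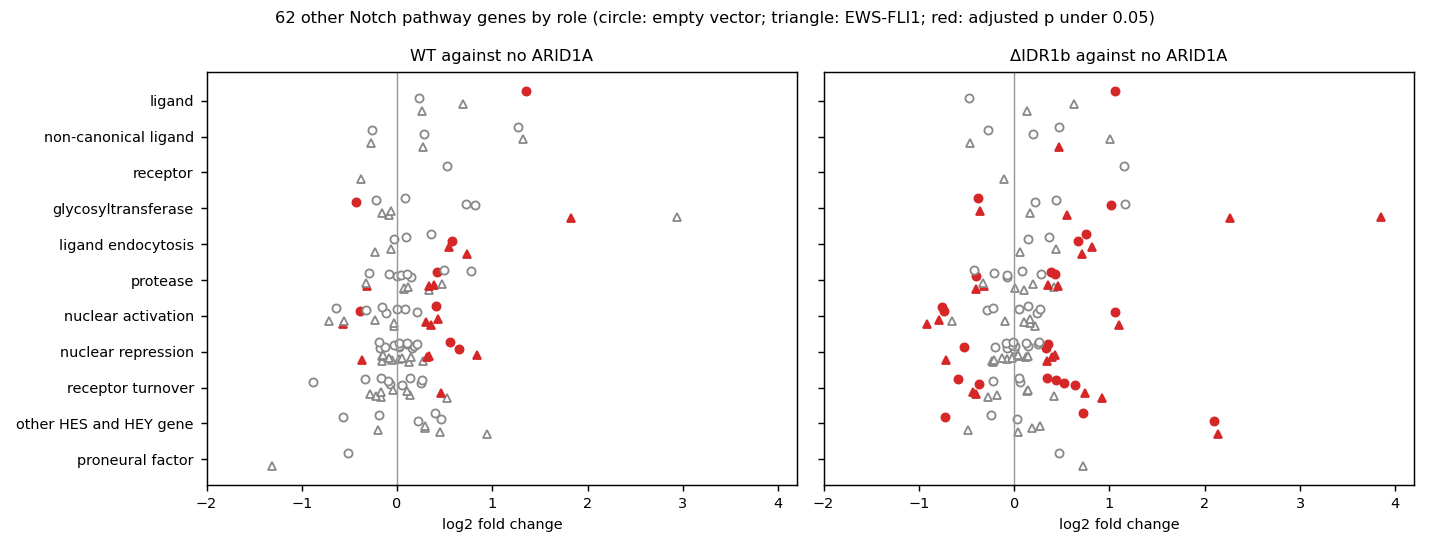
Log2 fold changes (horizontal axes) of the 62 other Notch genes, in rows by role, for WT (left) and ΔIDR1b (right) against no ARID1A, circles under the empty vector and triangles with EWS-FLI1, red where the adjusted p was under 0.05. With ΔIDR1b 23 genes are red for each vector, against 8 and 15 with WT. The triangle furthest right in each panel is MFNG, which had 2 counts in the reference group.

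TGGGAA occurred in the promoter windows of 13 of 60 list genes found in the RefSeq table, or 21.7%, beside 24.0% of all windows.

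Genes whose levels followed a member most closely over the 6 group means were taken from 3461 genes outside both lists that varied between groups, for the 3 members of widest range. Closest to HES5 were GNB3 (Pearson's r = 0.9968), C9orf64 (0.9935) and ZNF480 (0.9930), and GNB3 had group means of 2.32 to 3.24 CPM with no ARID1A or WT and of 9.07 and 9.90 CPM with ΔIDR1b. Closest to HES4 were TFAP2A-AS1 (0.9992), NFKBIZ (0.9991) and RPL30-AS1 (0.9988). NFKBIZ went from 30.2 and 27.7 CPM with no ARID1A through 19.0 and 15.9 CPM with WT to 10.0 and 8.27 CPM with ΔIDR1b. Closest to NOTCH3 were TLNRD1 (0.9980), EPPK1 (0.9980) and KLF15 (0.9976), and EPPK1 went from 2.27 and 2.40 CPM through 7.08 and 9.11 CPM to 30.0 and 30.8 CPM. These values describe likeness over 6 groups that share the same 3 ARID1A states. The antisense genes among them were counted without strand, so their reads cannot be told apart from those of overlapping partners.

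In GRCh38, as the annotation used for counting gives them, the genes lie at chr20:10637684-10673999 (JAG1), chr14:105140982-105168824 (JAG2), chr6:170282206-170306565 (DLL1), chr9:136494433-136546048 (NOTCH1), chr1:119911553-120100779 (NOTCH2), chr19:15159038-15200995 (NOTCH3), chr3:194136148-194138732 (HES1), chr1:998962-1000172 (HES4), chr1:2528745-2530263 (HES5) and chr8:79762371-79767857 (HEY1). Counts covered the exons of each gene, UTRs included. NOTCH1, NOTCH2, NOTCH3 and the 4 targets share no exonic base with another gene.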

How the data were processed

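Members and gene lists were chosen with earlier results of these data known. The deposited values are counts of fragments per gene, which the authors did not normalize. Per the file headers, the authors ran featureCounts 2.0.1 over GENCODE 41 exons (GRCh38), with both ends aligned and with no option for strand, multi-mapping or overlapping fragments. Duplicates were marked but not left out. Per the submitters' processing notes, STAR, SAMtools and edgeR were also used; the STAR version is not given in the sources used here.

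Of 60645 gene names, 20377 passed filterByExpr (minimum count 10, minimum total 15) and held 99.79 to 99.87% of each library's counts (11702251 to 14445379). Sizes were scaled by TMM (factors 0.932 to 1.08). The main fit was edgeR 4.0.16 (limma 3.58.1, R 4.3.3), a quasi-likelihood model with 1 mean per group over 12 libraries, with 12 contrasts, each tested 2-sided with Benjamini-Hochberg adjustment over all genes and called at 0.05. SE is the log2 fold change over the square root of F. The common biological coefficient of variation was 10.1%. The procedure was tested on simulated data. All 10 members were named. For the 71 other Notch genes the rule named, in each contrast of ARID1A states, called genes without overlap between libraries, up to 5 rising and 5 falling. Some of these are given as counts only. Values of a named gene under the other vector were added after they were seen, as were the EWS-FLI1 differences of DLL4. Lookalikes were the 5 genes with the highest r for 3 members, of which 3 each are printed. Alternatives were RLE and upper-quartile factors, no filter, DESeq2 1.42.0, fits of the compared groups alone, replicate blocks and leaving out each library.

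Differences between repeats 1 and 2 correlated between groups of the same vector at 0.104 to 0.412 over 10695 genes of at least 10 CPM, and at 0.0165 to 0.149 over 16694 genes of at least 1 CPM. Between vectors r ran from -0.223 to -0.00785 and from -0.0718 to 0.00844. The numbers thus pair libraries, if at all, within a vector. The blocked value stands beside the members whose call it changes and beside some of the other named genes. Blocked counts of the other Notch genes are given below.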

Additional observations from a re-analysis of the deposited data

How the results depend on the processing

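The counts of the 62 other Notch genes called moved by over 1.5 times in these settings. When only the libraries compared were fitted, WT against no ARID1A with EWS-FLI1 gave 6 and ΔIDR1b against WT with EWS-FLI1 gave 6. Calls over all genes fell too, to 2202 of 17966 and 1622 of 18087 tested, from 3684 and 3785 of 20377. A replicate block over all groups left every count of these genes as it was (8, 15, 23, 23, 17 and 10 between ARID1A states). The paired fit with a block within each vector gave 12, 22, 27, 28, 21 and 18 in the same order. Only the last, ΔIDR1b against WT with EWS-FLI1, moved by over 1.5 times. Over all 20377 genes that fit called 3606, 4849, 7659, 8157, 6121 and 5049. The main fit called 2381, 3684, 6778, 7321, 4995 and 3785. The cause was not tested. When each library was left out in turn, the lowest and highest counts were 0 and 1 for EWS-FLI1 with WT, 3 and 13 for WT against no ARID1A (4 and 17 under EWS-FLI1), 14 and 28 for ΔIDR1b against no ARID1A (15 and 30 under EWS-FLI1), and 9 and 21 for ΔIDR1b against WT (5 and 19 under EWS-FLI1). Where this left 1 library in a group, that library was assumed to vary like the other groups. Calls over all genes changed between these fits too. Of 55 named differences among these genes, 31 were called under every alternative run and 0 of 1045 alternative values reversed. For the 10 members, 2162 of 2274 alternative values kept a call in the same direction or stayed uncalled within 1 SE. Of the rest, 21 lost a call, 22 gained one and 69 moved by more than 1 SE without a call. Among values called in the main or the alternative fit, 0 reversed. Direction was not checked for values uncalled in both. Other scalings moved the median of all genes by at most 0.06 in log2. In the 250 bases before the start alone, 20.8% of promoters held TGGGAA, 5.43% GTGGGAA and 3.06% GGAAGGAA. Depth limits HES5 and MFNG, which had few fragments in several libraries. With 2 libraries a group, 1 library can decide a call.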
